A study of Mus musculus with 24 samples.

Results

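The MHC class II genes and their transactivator were followed here in mouse bone marrow-derived macrophages. They are the 8 rows of the deposited count table with the gene names H2-Aa, H2-Ab1, H2-Eb1, Cd74, Ciita, H2-DMa, H2-DMb1 and H2-DMb2, of 55401 genes in the table. Of these 8, 7 passed the filter on low counts and were among the 11717 genes tested, and H2-DMb2 did not pass. The cells were wild-type C57BL/6J macrophages, grown out of bone marrow in medium conditioned by L929 cells, a mouse fibroblast line, and plated for the experiment on day 6 of differentiation. There were 6 groups of 4 libraries each: S14 (30 µM) for 18 h, LPS (lipopolysaccharide, 100 ng/mL) for 18 h, untreated cells at 18 h, S14 for 3 h, LPS for 3 h and untreated cells at 3 h. S14 is sphingomyelin d18:1/14:0, a sphingolipid of cell membranes, and LPS is a component of the bacterial outer membrane. No group carried an altered allele. RNA was measured by 3′ end sequencing (QuantSeq), with 3334182 to 6350251 counted reads per library.

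MHC class II molecules are pairs of an alpha and a beta chain that carry peptides from the endosomal pathway to the cell surface, where CD4 T cells read them. In mouse, H2-Aa and H2-Ab1 encode the chains of I-A, and H2-Eb1 encodes the beta chain of I-E. The C57BL/6 strain is known to lack a working I-E alpha chain, so its H2-Eb1 transcript has no I-E partner at the surface. Cd74, the invariant chain, blocks the groove of new class II molecules and guides them to endosomes, and H2-DM, a dimer of H2-DMa with an H2-DMb chain, removes the last piece of the invariant chain and helps load peptides. Ciita is a coactivator that does not bind DNA itself. It docks on the RFX, CREB and NF-Y factors sitting on the X, X2 and Y boxes of class II promoters, and in macrophages it is known to be induced by interferon gamma.

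Of the 8 genes, 6 lie within 197 kb of chromosome 17, from 34119541 to 34316674 in the GRCm38 build (GENCODE M21 gene spans). In order along the chromosome they are H2-DMa (chr17:34119541-34139101), H2-DMb2 (chr17:34143307-34151555), H2-DMb1 (chr17:34153072-34160230), H2-Ab1 (chr17:34257689-34269419), H2-Aa (chr17:34282744-34287823) and H2-Eb1 (chr17:34305867-34316674). H2-Aa is on the minus strand and the other 5 are on the plus strand. Ciita lies elsewhere, at chr16:10480059-10528418 on the plus strand. All 8 members are protein-coding genes, and their IDs and starts were the same in the count table and in the annotation.

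The promoters of 4 of these genes are shown because each holds short boxes of the kind that the factors under Ciita bind. RefSeq's GRCm38.p6 table held a promoter entry for 5 members, in 6 windows that each run from 250 bases before to 50 bases after RefSeq's start of the gene. The windows printed are chr17:34287774-34288073 (minus strand), chr17:34305617-34305916, chr17:34152941-34153240 and chr17:34144999-34145298 (plus strand), each written 5′ to 3′ on the gene's strand. Capitals mark matches to an X box core (AACNGAT), a CRE-like X2 element (TGACGTC) and a Y box core (ATTGG, or CCAAT where the match is on the other strand).
H2-Aa promoter: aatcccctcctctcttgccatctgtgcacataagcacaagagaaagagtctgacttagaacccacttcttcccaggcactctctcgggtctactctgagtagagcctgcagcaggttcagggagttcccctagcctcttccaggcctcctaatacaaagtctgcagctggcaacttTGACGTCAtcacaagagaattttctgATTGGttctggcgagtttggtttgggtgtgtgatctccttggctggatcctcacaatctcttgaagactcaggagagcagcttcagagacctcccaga
H2-Eb1 promoter: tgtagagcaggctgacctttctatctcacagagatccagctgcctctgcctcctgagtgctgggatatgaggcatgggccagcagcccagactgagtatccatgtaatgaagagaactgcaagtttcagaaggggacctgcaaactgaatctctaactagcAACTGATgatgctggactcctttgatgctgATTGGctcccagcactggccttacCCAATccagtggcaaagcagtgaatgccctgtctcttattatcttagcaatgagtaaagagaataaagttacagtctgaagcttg
H2-DMb1 promoter: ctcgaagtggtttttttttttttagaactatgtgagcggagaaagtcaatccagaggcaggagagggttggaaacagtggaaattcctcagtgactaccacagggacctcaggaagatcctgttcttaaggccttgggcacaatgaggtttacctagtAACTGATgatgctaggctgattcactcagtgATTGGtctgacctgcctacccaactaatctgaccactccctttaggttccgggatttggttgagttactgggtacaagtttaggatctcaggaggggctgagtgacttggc
H2-DMb2 promoter: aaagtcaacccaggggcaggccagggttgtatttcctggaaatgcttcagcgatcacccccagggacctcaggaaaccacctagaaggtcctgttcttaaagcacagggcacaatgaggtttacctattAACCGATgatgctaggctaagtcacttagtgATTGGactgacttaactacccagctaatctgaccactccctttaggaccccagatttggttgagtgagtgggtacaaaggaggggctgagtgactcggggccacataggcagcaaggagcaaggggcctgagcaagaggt
In H2-Eb1, H2-DMb1 and H2-DMb2 an X box core stood 89, 92 and 121 bases before the start, in that order of genes, and a Y box core followed it. In H2-Aa the CRE-like element, which overlaps its own match on the other strand by all but 1 base at each end, stood 74 bases before the start and a Y box core followed. The spacing between the first bases of the X or CRE-like match and of the Y match was 26 bases in H2-Aa, 30 in H2-Eb1 and 31 in both H2-DMb genes. H2-Eb1 had a further Y box core on the other strand, and 1 of the 2 H2-DMa windows held a Y box core alone, 198 bases before its start. Searched on both strands, the X box core was present in 6.94% of all 32851 promoter windows in the table, the CRE-like element in 3.21% and the Y box core in 37.4%. An X or CRE-like match followed by a Y match at 26 to 31 bases, both on the gene's strand, was present in 19 windows, 0.0578% of them. The range of 26 to 31 bases was taken from the members' own windows, so 4 of their 6 windows were among these by construction. The motifs were written down after these promoters had been read, so the shares describe the windows and test nothing, and a match is not evidence of binding.

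**Figure D1:**
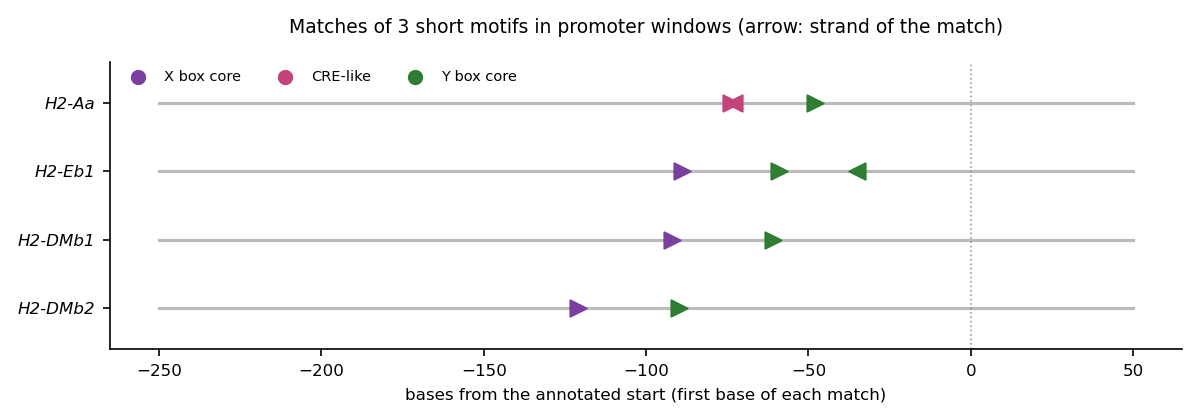
Position of each motif match in the printed promoter windows of 4 genes, in bases from the annotated start on the x axis, with arrows for the strand of the match and colours for the motif. In each of the 4 windows an X box core or CRE-like match is followed 26 to 31 bases later by a Y box core.

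The libraries and the cells were checked first. All 8 macrophage markers examined were expressed, with Lyz2 (a lysozyme) at 28532 CPM and Csf1r (the M-CSF receptor) at 2334 CPM on average in untreated cells at 18 h. CPM here is a read count relative to the size of its library as scaled by TMM, and it was not divided by gene length, since the kit reads transcript ends. Replicate 4 of the untreated 18 h group stood apart. It had 13405 detected genes, the fewest of all 24 libraries, and 0.0134% of its reads came from spike-in RNAs, while replicates 1 to 3 of that group had 0.0333% to 0.0418%. With TMM scaling, the counts of called members and list genes that use the untreated 18 h group are therefore given with and without it where they changed. Values without it are given for some genes. The series gives n = 4 for the mice, but no label ties a library to a mouse, so the p-values measure the spread between these libraries, which may be technical.

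Markers of other class II-positive cells were mostly at or near 0, apart from Ighm among B cell markers and Itgax and Batf3 among dendritic cell markers. Of 8 B cell markers, Blk had no read in any of the 24 libraries, and 6 of the 8 had at most 10 reads over all libraries. Ighm, the IgM heavy chain gene, held nearly all the list's reads. Ighm had 23.7, 12.6, 19.3 and 21.1 CPM in S14 cells at 18 h, 0.937, 0.503, 0.895 and 0 CPM in LPS cells at 18 h, and 123, 95.6, 136 and 173 CPM in untreated cells at 18 h. It stood at 38.0 CPM on average in untreated cells at 3 h. The other 7 B cell markers summed to between 0.598 and 2.02 CPM per library in S14 cells at 18 h, 0 to 1.41 CPM in LPS cells at 18 h and 0.790 to 1.58 CPM in untreated cells at 18 h. The 10 dendritic cell markers summed to 20.5 to 29.0 CPM in S14 cells at 18 h, 11.4 to 13.3 CPM in LPS cells at 18 h, 15.7 to 27.8 CPM in untreated cells at 18 h and 17.4 to 28.3 CPM in untreated cells at 3 h, and most of each sum was Itgax, an integrin that macrophages share. Flt3, Xcr1 and Zbtb46, also on the dendritic cell list, averaged at most 0.344 CPM in any group. Over all 24 libraries Siglech had 90 reads, Ccr7 70, Dpp4 39, Clec9a 26 and Cd209a 18. At 18 h Ighm was lower with both treatments, as Cd74 was, and the dendritic cell sum was lower with LPS. The part of either in the class II results was not tested. In these bulk samples fewer cells of a type and less RNA per cell cannot be told apart.

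The class II genes covered a wide range of levels and most of them were highest in cells left for 18 h without LPS. Summed over all 8 genes, the level was 1155 ± 42.3 CPM in S14 cells at 18 h, 397 ± 43.8 CPM in LPS cells at 18 h and 1629 ± 412 CPM in untreated cells at 18 h (SD, n = 4 each). At 3 h it was 518 ± 40.02 CPM with S14, 595 ± 36.1 CPM with LPS and 403 ± 28.9 CPM in untreated cells (SD, n = 4 each). Cd74, which lies at chr18:60803848-60812652 on the plus strand, was the most abundant member in every group and H2-DMb2 the least abundant in all but LPS cells at 18 h, where Ciita (1.47 CPM) and H2-DMb2 (1.504 CPM) were close. By mean level, untreated 18 h cells stood first for H2-Aa, H2-Ab1, Cd74, Ciita and H2-DMa, and S14 18 h cells stood first for H2-Eb1 and H2-DMb1. The ranges of these 2 groups overlapped for H2-Aa, H2-Ab1, Ciita, H2-DMa and H2-DMb1, and did not overlap for Cd74 and H2-Eb1. Here and below, the share of all tested genes whose groups separate in this way is not given. LPS cells at 18 h stood last for H2-Aa, H2-Eb1, Cd74 and Ciita, although for Cd74 their range overlapped that of untreated cells at 3 h and for Ciita that of LPS cells at 3 h.

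**Figure D2:**
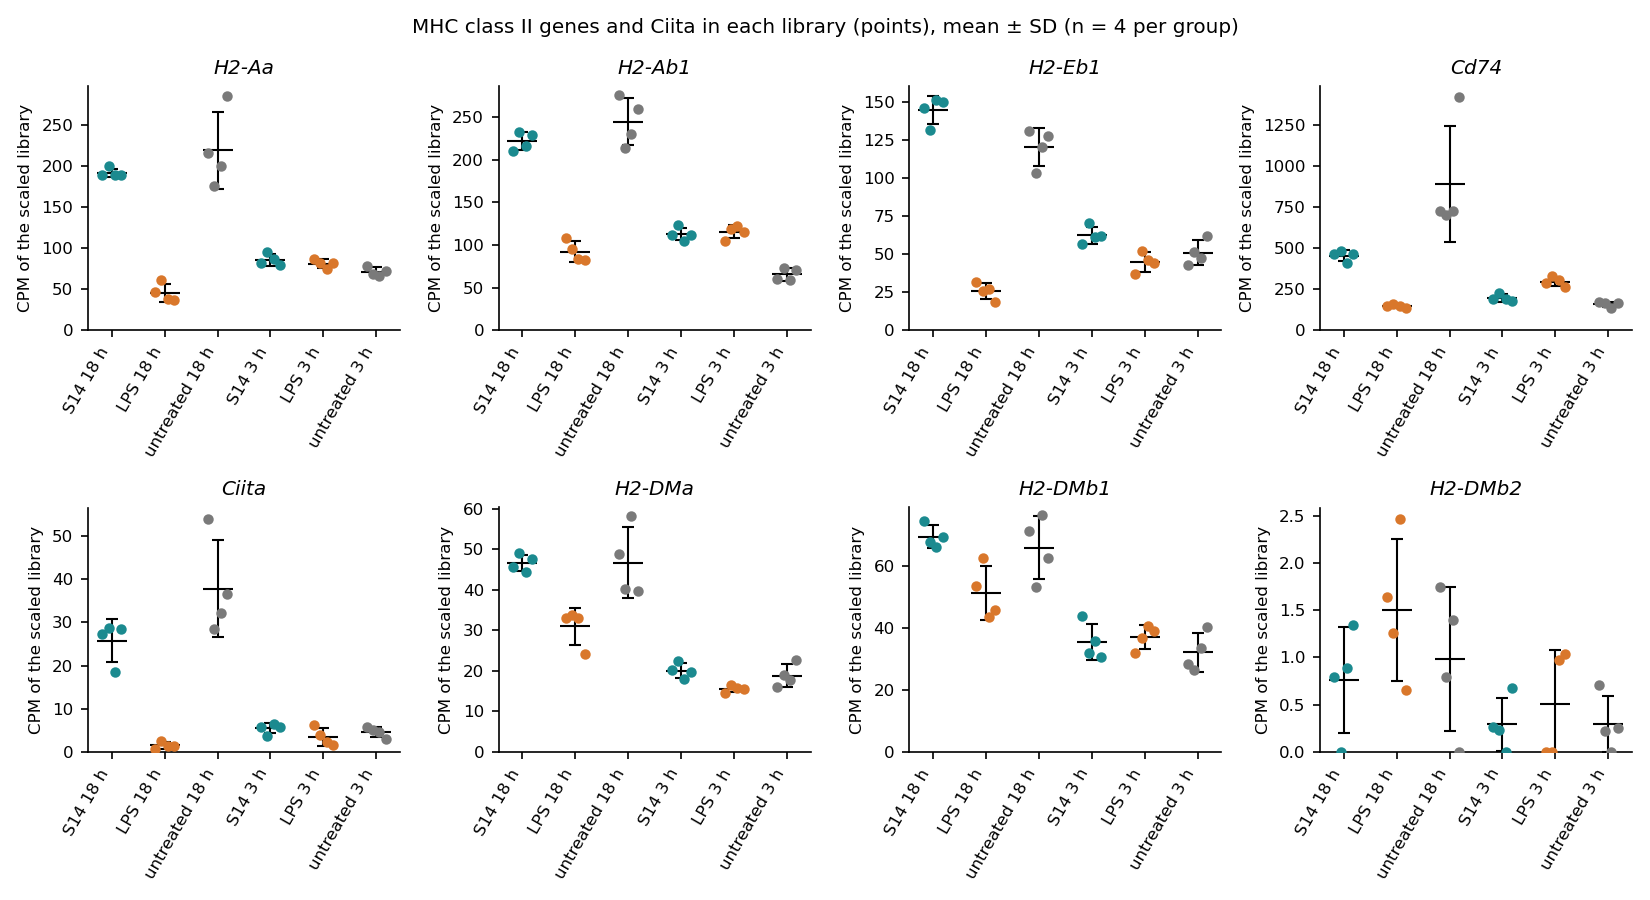
Level of each of the 8 genes in every library (points, CPM on the y axis, a separate scale per gene), with the mean and SD of the 4 libraries of a group, for S14, LPS and untreated cells at 18 h and then at 3 h. Untreated cells at 18 h carry 1 library with a Cd74 level of 1423 CPM, above the other 3 at 699 to 727 CPM, and at 18 h every LPS library lies below every untreated library for 6 of the 8 genes. The share of all genes in the table with such separate ranges is not given.

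The untreated macrophages themselves changed between the time points, and all 7 tested genes rose. Ciita rose most, about 8.16-fold, followed by Cd74 (5.60-fold), H2-Ab1 (3.73-fold) and H2-Aa (3.06-fold), while the H2-DM genes rose by 2.06-fold to 2.49-fold. The question this comparison answers is what the cells did with no stimulus, which sets the baseline for both treatments. Ciita had 54.0, 28.5, 32.3 and 36.6 CPM in untreated cells at 18 h, against 5.65, 4.95, 4.62 and 3.06 CPM in untreated cells at 3 h. Cd74 had 727, 699, 724 and 1423 CPM at 18 h, against 169.8, 167, 137 and 163 CPM at 3 h. The lowest 18 h library exceeded the highest 3 h library for both genes, and for Cd74 the 4th library lay far above the other 3.

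The I-A and I-E chain genes followed with less spread. H2-Ab1 had 276, 214, 230.0 and 259 CPM in untreated cells at 18 h, against 59.6, 73.0, 59.0 and 70.7 CPM at 3 h. H2-Aa had 216, 176, 200.1 and 285 CPM at 18 h, against 78.9, 68.9, 66.0 and 72.8 CPM at 3 h. H2-Eb1 ranged over 104 to 131 CPM at 18 h and 42.9 to 62.1 CPM at 3 h. For the peptide-loading genes, H2-DMa ranged over 39.7 to 58.2 CPM at 18 h and 16.0 to 22.7 CPM at 3 h, and H2-DMb1 over 53.1 to 76.3 CPM at 18 h and 26.3 to 40.3 CPM at 3 h. None of these ranges overlapped between the time points, and the share of all tested genes that separate like this is not given here. H2-DMb1 shares much of its end sequence with its neighbour H2-DMb2: the last 100 bases of their longest coding transcripts were 87.1% identical and the last 300 bases 66%, so their reads may have been split between them and both genes are uncertain.

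In edgeR's quasi-likelihood test with Benjamini-Hochberg adjustment over 11717 genes, all 7 of 7 were higher at 18 h, where 38.8% of all tested genes passed, 19.2% higher and 19.6% lower. The log2 fold changes were 3.03 ± 0.26 for Ciita (SE, adjusted p = 1.63e-12), 2.49 ± 0.18 for Cd74 (2.91e-10), 1.90 ± 0.10 for H2-Ab1 (1.55e-19) and 1.61 ± 0.12 for H2-Aa (6.62e-14). For H2-DMa, H2-Eb1 and H2-DMb1 they were 1.32 ± 0.14, 1.25 ± 0.12 and 1.04 ± 0.14, with adjusted p of at most 5.51e-08. The median of the 7 was 1.61, against -0.01 over all tested genes. Without replicate 4 of the untreated 18 h group all 7 were still higher, against 17.7% of 11905 genes tested then. Their median was 1.46, with 2.17 ± 0.08 for Cd74, 1.46 ± 0.10 for H2-Aa and 3.04 ± 0.26 for Ciita. The mean Cd74 level at 18 h was then 717 ± 15.5 CPM (SD, n = 3), against 893 ± 353 CPM with all 4 libraries. Ighm also rose between the time points, by 1.79 ± 0.16 on the log2 scale (adjusted p in the same test under 0.05), and the 8 macrophage markers summed to 31723 to 45779 CPM in untreated cells at 18 h against 20049.9 to 21383 CPM at 3 h, with the highest sum in replicate 4. Their part in the rise was not tested.

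After 3 h of LPS, Cd74 and H2-Ab1 were higher than in untreated cells, by 1.86-fold and 1.76-fold, and no member was lower in the test. Cd74 had 285, 329, 306 and 266 CPM in LPS cells, against 169.8, 167, 137 and 163 CPM in untreated cells at 3 h. H2-Ab1 had 105, 119, 123 and 116 CPM in LPS cells, against 59.6, 73.0, 59.0 and 70.7 CPM in untreated cells. All 4 LPS libraries lay above all 4 untreated ones for both genes. How many of all tested genes separate like this is not given. The log2 fold changes were 0.90 ± 0.17 for Cd74 (SE, edgeR's quasi-likelihood test, adjusted p = 0.000152) and 0.82 ± 0.10 for H2-Ab1 (adjusted p = 2.53e-09). So 2 of 7 members were higher and 0 lower, where 55.5% of all tested genes passed, 25.3% higher and 30.2% lower. That share is near the background for higher calls.

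The other 5 tested members did not pass the test at 3 h of LPS. Ciita had 6.22, 3.90, 2.18 and 1.56 CPM in LPS cells, from 23, 14, 9 and 6 reads, against 5.65, 4.95, 4.62 and 3.06 CPM in untreated cells. Its groups overlapped, and its log2 fold change was -0.42 ± 0.35 (adjusted p = 0.311). H2-Aa, H2-Eb1, H2-DMa and H2-DMb1 had log2 fold changes from -0.27 to 0.21. H2-Aa passed in a fit of only the 8 libraries compared (0.23, adjusted p = 0.0366 in edgeR's quasi-likelihood test). The signs of Ciita, H2-DMa and H2-Eb1 turned with scaling to spike-in RNAs.

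After 18 h of LPS, every tested member was lower than in untreated cells of the same time. Ciita was lower by 25.6-fold, Cd74 by 6.05-fold, H2-Aa by 4.81-fold, H2-Eb1 by 4.70-fold and H2-Ab1 by 2.66-fold. The H2-DM genes fell much less, with H2-DMa lower by 1.51-fold and H2-DMb1 by 1.29-fold. Ciita had 0.703, 2.52, 1.34 and 1.31 CPM in LPS cells, which is 3, 10, 6 and 6 reads, against 54.0, 28.5, 32.3 and 36.6 CPM in untreated cells at 18 h, from 180 to 279 reads. The LPS libraries of Ciita were all within a few reads of 0 and far below the untreated ones.

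Cd74 had 149, 159, 147 and 136 CPM in LPS cells, against 727, 699, 724 and 1423 CPM in untreated cells at 18 h. H2-Aa had 46.4, 61.4, 38.0 and 36.9 CPM in LPS cells, against 216, 176, 200.1 and 285 CPM in untreated cells. H2-Eb1 had 31.9, 25.7, 26.9 and 18.6 CPM in LPS cells, against 131, 104, 120.4 and 128 CPM in untreated cells. The groups did not overlap for any of the 3 genes, and for H2-Aa and H2-Eb1 the LPS libraries also lay below every untreated 3 h library. How many of all tested genes separate like this is not given.

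H2-Ab1 had 108, 94.9, 83.5 and 82.1 CPM in LPS cells, against 276, 214, 230.0 and 259 CPM in untreated cells at 18 h. H2-DMa had 33.0, 33.7, 33.1 and 24.2 CPM in LPS cells, against 48.8, 40.3, 58.2 and 39.7 CPM in untreated cells. Both genes were below untreated 18 h cells in every LPS library, and both stayed above untreated 3 h cells in every LPS library. H2-DMb1 had 53.6, 62.4, 43.4 and 45.6 CPM in LPS cells, against 71.2, 53.1, 76.3 and 62.7 CPM in untreated cells, and here the groups overlapped.

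In edgeR's quasi-likelihood test 7 of 7 members were lower after 18 h of LPS and 0 higher, where 55.6% of all tested genes passed, 28.3% lower and 27.3% higher. The log2 fold changes were -4.68 ± 0.32 for Ciita (SE, adjusted p = 1.62e-16), -2.60 ± 0.18 for Cd74 (4.15e-11), -2.27 ± 0.13 for H2-Aa (1.97e-18), -2.23 ± 0.13 for H2-Eb1 (8.06e-19) and -1.41 ± 0.10 for H2-Ab1 (1.37e-16). They were -0.59 ± 0.14 for H2-DMa (adjusted p = 0.000312) and -0.36 ± 0.13 for H2-DMb1 (0.0187). The median of the 7 was -2.23, against -0.04 over all tested genes. Without replicate 4 of the untreated 18 h group 7 were again lower, with Cd74 at -2.28 ± 0.08 and Ciita at -4.69 ± 0.32, where 27.5% of 11905 genes were lower. The H2-DMb1 call was lost when untreated 18 h replicate 1 or 3, or LPS 18 h replicate 3 or 4, was left out, with adjusted p from 0.0516 to 0.0915. Ighm was lower too, by -7.77 ± 0.29 on the log2 scale, and the macrophage marker sum was 16039 to 24689 CPM in LPS cells at 18 h against 31723 to 45779 CPM in untreated cells, most of it Lyz2 (-1.40 ± 0.14). Of the 8 macrophage markers 3 were lower and 3 higher, with a median of 0.11 and Fcgr1 at 2.04 ± 0.10. Without untreated 18 h replicate 4, 2 of these markers were lower and 4 higher, with a median of 0.23. The part of these genes in the class II result was not tested.

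The effect of LPS thus differed between the time points, and this difference was tested directly as the 18 h effect minus the 3 h effect. It was below 0 for 6 of 7 members, where 51.2% of all tested genes passed, 26.1% below 0 and 25.1% above. The differences on the log2 scale were -4.25 ± 0.50 for Ciita (SE, edgeR's quasi-likelihood test, adjusted p = 1.68e-09), -3.49 ± 0.25 for Cd74 (1.06e-10), -2.45 ± 0.18 for H2-Aa (8.36e-15), -2.23 ± 0.14 for H2-Ab1 (1.51e-17), -2.05 ± 0.18 for H2-Eb1 (7.83e-13) and -0.57 ± 0.20 for H2-DMb1 (0.0137). For H2-DMa it was -0.33 ± 0.21 (adjusted p = 0.202) and did not pass. The untreated cells enter this difference at both times, so their own rise is part of it. In absolute level, Cd74 in LPS cells was 136 to 159 CPM at 18 h and 266 to 329 CPM at 3 h, and H2-DMa in LPS cells was 24.2 to 33.7 CPM at 18 h and 14.6 to 16.4 CPM at 3 h, so the times stood in opposite orders for these genes. LPS cells at 18 h were not tested against LPS cells at 3 h.

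S14 left most class II genes near the untreated level at 3 h, with H2-Ab1 the exception at 1.72-fold higher. H2-Ab1 had 112, 123, 105 and 112 CPM in S14 cells, against 59.6, 73.0, 59.0 and 70.7 CPM in untreated cells at 3 h. All 4 S14 libraries lay above all 4 untreated ones, with the share of all tested genes that separate like this not given. Its log2 fold change was 0.79 ± 0.10 (SE, edgeR's quasi-likelihood test, adjusted p = 3.41e-08), close to the 0.82 found with LPS, which was set against the same untreated libraries. That made 1 of 7 members higher and 0 lower, where 15.2% of all tested genes passed, 9.05% higher and 6.2% lower. With scaling to spike-in RNAs the H2-Ab1 call was lost (0.90, adjusted p = 0.132) but was made again in that scaling once replicate 4 of the untreated 18 h group was dropped (0.90, adjusted p = 0.0031).

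Cd74, H2-Aa and H2-Eb1 had log2 fold changes of 0.30 ± 0.17, 0.26 ± 0.12 and 0.30 ± 0.12 with S14 at 3 h and did not pass the test (adjusted p of 0.323, 0.179 and 0.107). Cd74 had 188, 229.8, 189 and 176 CPM in S14 cells, against 169.8, 167, 137 and 163 CPM in untreated cells, with no overlap. H2-Aa had 82.4, 95.04, 86.6 and 79.2 CPM in S14 cells, against 78.9, 68.9, 66.0 and 72.8 CPM in untreated cells, also with no overlap. In a fit of only these 8 libraries all 3 passed, which made 4 of 7 members higher. The share of all genes that passed in that fit is not given here, so this count has no background beside it. Ciita had 5.69, 3.76, 6.53 and 5.76 CPM in S14 cells and overlapped untreated cells (log2 fold change 0.25 ± 0.31, adjusted p = 0.706). H2-DMa and H2-DMb1 had log2 fold changes of 0.09 and 0.14 and overlapped untreated cells as well.

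After 18 h of S14, Cd74 was lower than in untreated cells and the I-A, I-E and H2-DM genes did not pass the test in either direction. Cd74 had 465, 482, 408 and 462 CPM in S14 cells, against 727, 699, 724 and 1423 CPM in untreated cells at 18 h. All 4 S14 libraries lay below all 4 untreated ones, with the share of all tested genes that separate like this not given. In the fit Cd74 was 1.97-fold lower. The log2 fold change was -0.97 ± 0.17 (SE, edgeR's quasi-likelihood test, adjusted p = 0.000158). Without replicate 4 of the untreated group it was -0.66 ± 0.08, 1.58-fold lower (adjusted p = 2.90e-09). So 1 of 7 members was lower and 0 higher, where 24.3% of all tested genes passed, 11.6% lower and 12.6% higher, so the share is near the background.

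Ciita had 27.3, 28.8, 18.4 and 28.5 CPM in S14 cells, against 54.0, 28.5, 32.3 and 36.6 CPM in untreated cells at 18 h. The groups overlapped by 1 untreated library, and the log2 fold change of -0.55 ± 0.22 did not pass (adjusted p = 0.0614). Leaving out untreated 18 h replicate 2 brought it past the threshold (-0.66, adjusted p = 0.0310), and leaving out replicate 1 moved it to -0.33 (adjusted p = 0.313). H2-Aa had 189, 199.9, 189 and 189 CPM in S14 cells, inside the untreated range of 176 to 285 CPM. H2-Ab1 had 210.1, 232, 216 and 229 CPM in S14 cells and 214 to 276 CPM in untreated cells. H2-Eb1 had 147, 132, 152 and 150.0 CPM in S14 cells, against 131, 104, 120.4 and 128 CPM in untreated cells, above them in every library, but its log2 fold change of 0.26 ± 0.11 did not pass (adjusted p = 0.0834) and its sign turned with spike-in scaling. H2-DMa and H2-DMb1 averaged 46.6 and 69.4 CPM in S14 cells, against 46.7 and 65.8 CPM in untreated cells. Ighm was lower in S14 cells by -2.78 ± 0.17 on the log2 scale in the same fit, and its part in the Cd74 difference was not tested. The 8 macrophage markers summed to 32100.4 to 33187 CPM in S14 cells, within the untreated range.

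The effect of S14 differed between the time points for Cd74 and H2-Ab1. The 18 h effect minus the 3 h effect was -1.27 ± 0.24 for Cd74 (SE, edgeR's quasi-likelihood test, adjusted p = 0.000699) and -0.93 ± 0.13 for H2-Ab1 (1.77e-06) on the log2 scale. These were 2 of 7 members, where 16.6% of all tested genes passed, 8.98% below 0 and 7.61% above. Without untreated 18 h replicate 4 the Cd74 difference was -0.95. H2-Aa, at -0.45 ± 0.17, lay just outside the threshold (adjusted p = 0.0591). It passed with DESeq2 (-0.49, adjusted p = 0.0490) and missed without untreated 18 h replicate 4 (-0.30, adjusted p = 0.152).

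**Figure D3:**
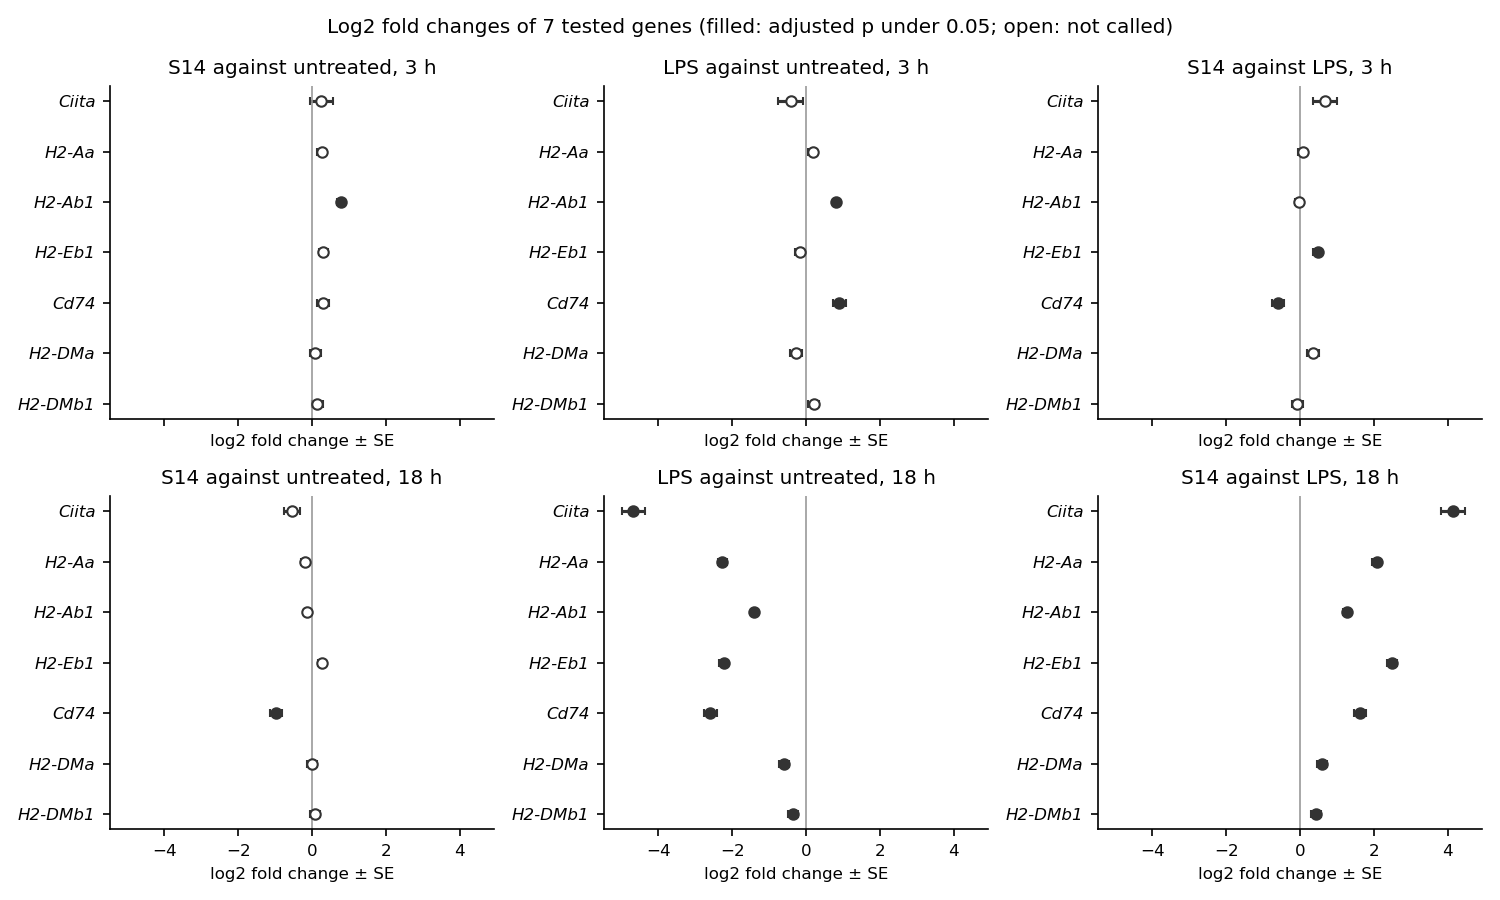
Log2 fold change with its standard error (x axis) of the 7 tested genes (y axis) for S14 against untreated, LPS against untreated and S14 against LPS, at 3 h in the upper row and 18 h in the lower row. Filled points passed an adjusted p of 0.05: 7 of 7 with LPS against untreated at 18 h and with S14 against LPS at 18 h, and 1 or 2 in each of the other 4 comparisons.

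Set directly against each other, S14 and LPS cells differed at 18 h in all 7 tested members, each higher with S14. Ciita was 17.5-fold higher in S14 cells, H2-Eb1 5.64-fold, H2-Aa 4.21-fold, Cd74 3.08-fold and H2-Ab1 2.41-fold, and H2-DMa and H2-DMb1 were 1.505-fold and 1.36-fold higher. No S14 library overlapped the LPS libraries for any of these 7 genes, and the share of all tested genes that separate like this is not given here. The log2 fold changes were 4.13 ± 0.32 for Ciita (SE, edgeR's quasi-likelihood test, adjusted p = 3.79e-14), 2.50 ± 0.13 for H2-Eb1 (5.96e-20), 2.07 ± 0.13 for H2-Aa (8.40e-17), 1.62 ± 0.17 for Cd74 (1.10e-07) and 1.27 ± 0.10 for H2-Ab1 (9.79e-15). They were 0.59 ± 0.14 for H2-DMa (adjusted p = 0.000581) and 0.44 ± 0.13 for H2-DMb1 (0.00674). So 7 of 7 were higher with S14, where 42.6% of all tested genes passed, 21.3% in each direction. The median of the 7 was 1.62, against 0.02 over all genes. With spike-in scaling 5 of 7 passed, and H2-DMa and H2-DMb1 did not. In that scaling 519 of all tested genes were higher with S14 and 1396 lower.

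At 3 h 5 of the 7 members did not pass in the same contrast. H2-Eb1 was higher with S14 than with LPS, with 56.9, 70.3, 61.1 and 61.9 CPM in S14 cells against 37.1, 52.4, 46.4 and 44.1 CPM in LPS cells (log2 fold change 0.48 ± 0.13, edgeR's quasi-likelihood test, adjusted p = 0.00180). Cd74 was lower with S14 than with LPS, with 188, 229.8, 189 and 176 CPM in S14 cells against 285, 329, 306 and 266 CPM in LPS cells (-0.60 ± 0.17, adjusted p = 0.00657). The groups did not overlap for either gene, and the share of all tested genes that separate like this is not given. This was 1 of 7 higher and 1 of 7 lower, where 46.1% of all tested genes passed, 23.7% higher and 22.4% lower, so the members' share is not above the background. With spike-in scaling of all 24 libraries Cd74 was -0.84 (edgeR's quasi-likelihood test, adjusted p = 0.0957) and H2-Eb1 0.28 (adjusted p = 0.631), and neither passed. H2-DMa lay above LPS cells in every S14 library but did not pass (0.36 ± 0.16, adjusted p = 0.0657).

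H2-DMb2, an alternative H2-DM beta chain gene, was hardly detected. Over the 4 libraries of a group it had 14 reads with S14 at 18 h, 26 with LPS at 18 h, 24 in untreated cells at 18 h, 6 with S14 at 3 h, 8 with LPS at 3 h and 5 in untreated cells at 3 h. Single libraries held 0 to 11 reads. In a fit with no filter on low counts no comparison of it passed (adjusted p of at least 0.284), and differences were not detectable at this depth. Of 4 further class II genes of the same region found in the table (H2-Oa, H2-Ob, H2-Eb2 and H2-Ea), none passed the filter, and they summed to at most 5.41 CPM in any library.

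Because TMM scaling takes most genes as unchanged, the same tests were run with the libraries scaled to their spike-in reads, which number only 705 to 2588 per library. This moved the median log2 fold change of all tested genes by -0.97 for S14 against untreated at 18 h, by -0.64 for LPS against untreated at 18 h and by 0.83 for untreated cells at 18 h against 3 h. Without untreated 18 h replicate 4, which had the fewest spike-in reads, the shifts were -0.48, -0.16 and 0.34. Ciita with LPS at 18 h was -5.37 and Cd74 -3.53 with spike-in scaling, and -4.90 and -2.44 when replicate 4 was also left out. Cd74 with S14 at 18 h was -2.22 and then -1.13, which is below the shift of all genes in both fits. With spike-in scaling all 7 members were lower with S14 at 18 h, as were 7533 of all tested genes. Without replicate 4, of the members only Cd74 and Ciita (-1.03, adjusted p = 0.0104 in edgeR's quasi-likelihood test) were lower. In that fit 2157 of all genes tested then were lower and 133 higher.

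**Figure D4:**
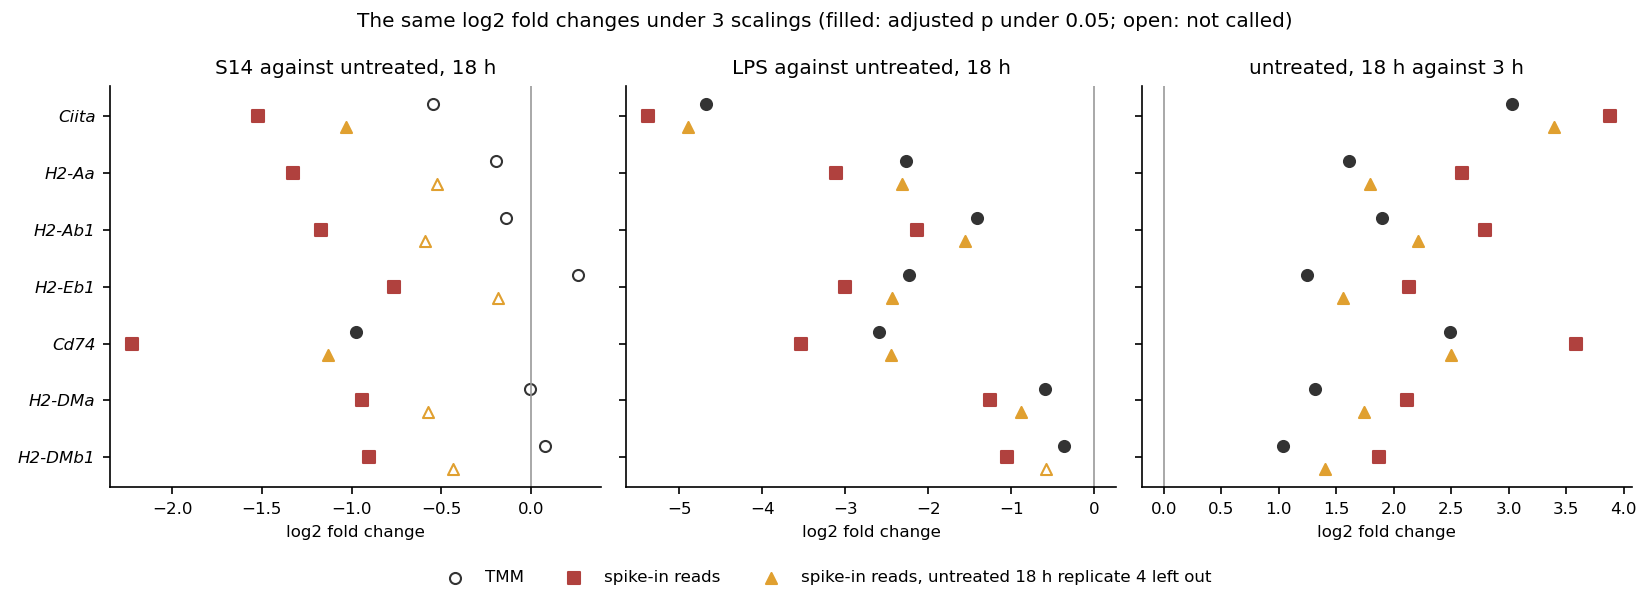
Log2 fold changes (x axis) of the 7 tested genes under TMM scaling, spike-in scaling, and spike-in scaling without untreated 18 h replicate 4, for S14 against untreated at 18 h, LPS against untreated at 18 h, and untreated cells at 18 h against 3 h. In the last 2 panels every point keeps its side of 0, while in the S14 panel H2-Eb1 and H2-DMb1 lie above 0 with TMM and below 0 with both spike-in scalings.

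The factors that bind class II promoters did not share a direction. Of 8 such genes (Rfx5, Rfxap and Rfxank of the RFX complex, Nfya, Nfyb and Nfyc of NF-Y, and Creb1 and Atf1), 0 were higher and 1 lower with S14 at 18 h, 2 higher and 1 lower with LPS at 18 h, and 1 higher and 1 lower in untreated cells at 18 h against 3 h. The shares of all tested genes were 12.6% higher and 11.6% lower with S14 at 18 h, 27.3% and 28.3% with LPS at 18 h, and 19.2% and 19.6% over time, so these counts are near the background. With LPS at 18 h their log2 fold changes ran from -0.28 (Creb1) to 0.74 (Rfxank), with a median of -0.16. Rfx5, the large RFX subunit, averaged 14.0 CPM in LPS cells and 15.35 CPM in untreated cells at 18 h. With S14 at 18 h it was lower by -0.53 ± 0.20. With LPS at 3 h 3 were higher, led by Rfx5 (0.91 ± 0.19), and 3 lower, led by Rfxap (-1.17 ± 0.20), and with S14 at 3 h none passed in edgeR's quasi-likelihood test.

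With TMM scaling, most of the listed genes that act on Ciita were higher with LPS at both times. The list pools the interferon gamma receptor, its kinases, Irf1 and Spi1 (PU.1) with inhibitors such as Socs1 and Socs3, so its counts give no direction of input to Ciita. Of 13 tested, 12 were higher and 1 lower with LPS at 3 h, and 9 were higher and 1 lower at 18 h. Over all tested genes 25.3% were higher and 30.2% lower with LPS at 3 h, and 27.3% higher and 28.3% lower at 18 h. With spike-in scaling, 10 of the 13 were higher and 0 lower at 3 h, and 3 were higher and 1 lower at 18 h. Their median at 18 h was then -0.10. In that scaling 2341 of all tested genes were higher and 955 lower at 3 h, and 695 higher and 4526 lower at 18 h. Irf1, an interferon-induced transcription factor, averaged 234 CPM in LPS cells and 154 CPM in untreated cells at 18 h (0.61 ± 0.08 on the log2 scale). The receptor chain Ifngr1 was the gene called lower at both times, by -0.60 ± 0.08 at 3 h and -0.28 ± 0.08 at 18 h. Socs3 and Socs1, inhibitors of JAK signalling, were higher by 7.16 ± 0.25 and 3.61 ± 0.20 with LPS at 18 h. Socs3 averaged 597 CPM and Socs1 36.7 CPM in LPS cells, against 4.27 and 2.95 CPM in untreated cells at 18 h.

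With S14, 9 of these 13 genes were higher at 3 h, with Socs3 (3.59 ± 0.21), Socs1 (2.18 ± 0.19), Jak2 (2.07 ± 0.11) and Irf1 (1.68 ± 0.09) leading. Of all tested genes, 9.05% were higher and 6.2% lower with S14 at 3 h. At 18 h of S14 5 were higher and 1 lower, and apart from Socs3 (2.88 ± 0.28) the called changes stayed between -0.35 and 0.53. The shares of all tested genes were 12.6% higher and 11.6% lower. With spike-in scaling, 5 of the 13 were higher and 0 lower with S14 at 3 h, and 1 was higher and 7 lower at 18 h. In that scaling 346 of all tested genes were higher and 28 lower at 3 h, and 106 higher and 7533 lower at 18 h. In untreated cells 4 were higher and 3 lower at 18 h against 3 h, where 19.2% of all tested genes were higher and 19.6% lower. Without untreated 18 h replicate 4, 6 were higher and 3 lower over time, against 17.7% and 18.4% of all genes tested then. Irf8 (0.77 ± 0.13), a myeloid transcription factor, was higher, and Socs3 (-2.12 ± 0.30) and Socs1 (-1.33 ± 0.26) were lower. Prdm1, a known repressor of the Ciita promoter in B cells and dendritic cells, was higher at 3 h with S14 (1.58 ± 0.22) and LPS (1.89 ± 0.22) and did not pass at 18 h with either. Ifng itself averaged at most 0.135 CPM in every group and was not tested.

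With TMM scaling, more genes for the proteases and partners that prepare class II molecules were higher than lower in each comparison at 18 h. Of 11 genes, 7 were higher and 2 lower with LPS at 18 h, 5 higher and 0 lower with S14 at 18 h, and 8 higher and 0 lower in untreated cells at 18 h against 3 h. Over all tested genes 27.3% were higher and 28.3% lower with LPS at 18 h, 12.6% and 11.6% with S14 at 18 h, and 19.2% and 19.6% over time. With spike-in scaling, 1 of the 11 was higher and 3 lower with LPS at 18 h, and 0 were higher and 6 lower with S14. Over time 9 were higher and 0 lower in that scaling. Of all tested genes, 695 were then higher and 4526 lower with LPS, 106 and 7533 with S14, and 5426 and 213 over time. Ctss, the main protease of the invariant chain in many antigen-presenting cells, rose with time in untreated cells by 1.37 ± 0.08 and had a log2 fold change of -0.11 ± 0.08 with LPS at 18 h. It was named for its place among the largest changes over time, as were Lgmn (0.95 ± 0.08) and Ctsh (0.93 ± 0.10). With LPS at 18 h the largest changes were Cst7 (4.01 ± 0.24), a cathepsin inhibitor, Ctsl (1.34 ± 0.08) and Ctsh (1.03 ± 0.10). With S14 at 18 h they were Cst7 (1.67 ± 0.27), Ctsz (0.72 ± 0.07) and Ctsh (0.55 ± 0.09).

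Among genes for class II turnover, Marchf1, an E3 ubiquitin ligase that marks surface class II for breakdown, was higher with LPS at both times. Marchf1 had 51.2, 47.5, 47.6 and 51.0 CPM in S14 cells at 18 h, 139.8, 132, 161 and 168 CPM in LPS cells at 18 h, and 34.3, 31.0, 28.1 and 44.5 CPM in untreated cells at 18 h. It was higher with LPS at 18 h by 2.13 ± 0.14 and at 3 h by 3.33 ± 0.19, and higher with S14 at 18 h by 0.52 ± 0.14, with 3 groups at 18 h that did not overlap. In untreated cells it rose between the time points by 2.72 ± 0.19, as the class II genes did. Cd83, which counters this ligase in dendritic cells, was higher at 3 h with S14 (1.63 ± 0.12) and LPS (3.29 ± 0.12). At 18 h it was lower with S14 (-1.34 ± 0.13) and LPS (-1.89 ± 0.14, named after its value was seen). Mif, a ligand of surface Cd74, was higher at 18 h with S14 (1.01 ± 0.09) and LPS (2.04 ± 0.09). Over the 9 tested genes of this list, 3 were higher and 4 lower with S14 at 18 h, 2 higher and 3 lower with LPS at 18 h, and 3 higher and 3 lower in untreated cells over time. With LPS at 18 h these counts are near the background of 27.3% higher and 28.3% lower. The shares of all tested genes were 12.6% higher and 11.6% lower with S14 at 18 h, and 19.2% and 19.6% over time. Without untreated 18 h replicate 4, 3 were higher and 5 lower with S14, 2 and 4 with LPS, and 4 and 4 over time. The shares of all genes were then 11.4% and 9.89% with S14, 26.9% and 27.5% with LPS, and 17.7% and 18.4% over time.

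Costimulatory genes, which accompany class II on activated cells, were mostly higher with LPS at both times. Of 5 tested, 5 were higher with LPS at 3 h, and at 18 h 3 were higher and 1 lower, where 25.3% of all tested genes were higher at 3 h and 27.3% at 18 h. At 18 h Cd274 (PD-L1) was higher with LPS by 4.40 ± 0.19, Cd86 by 2.35 ± 0.14 and Cd40 by 2.07 ± 0.12. With S14, 3 of 5 were higher at 3 h, with Cd40 at 2.604 ± 0.11, and at 18 h 1 was higher (Cd274, 1.23 ± 0.18) and 1 lower. Of all tested genes, 9.05% were higher with S14 at 3 h, and 12.6% were higher and 11.6% lower at 18 h. All calls on these lists come from edgeR's quasi-likelihood test across all genes. Without untreated 18 h replicate 4, 3 of the 8 promoter factors were lower with S14 at 18 h, and 9 of the 11 processing genes were higher in untreated cells over time, while 3 rather than 2 of those 11 were lower with LPS at 18 h. Of the promoter factors 0 were then higher and 1 lower over time. The shares of all genes tested then were 9.89% lower with S14, 27.5% lower with LPS, and 17.7% higher and 18.4% lower over time. With spike-in scaling, 7 of the 8 promoter factors were lower with S14 at 18 h, and 2 were lower and 0 higher with LPS at 18 h. Of the 5 costimulatory genes 4 were then lower and 0 higher with S14 at 18 h, and 2 lower and 3 higher with LPS. Of the 9 turnover genes 6 were lower and 0 higher with S14 at 18 h, and 4 lower and 2 higher with LPS. In that scaling 7533 of all 11717 tested genes were lower and 106 higher with S14 at 18 h, and 4526 lower and 695 higher with LPS.

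**Figure D5:**
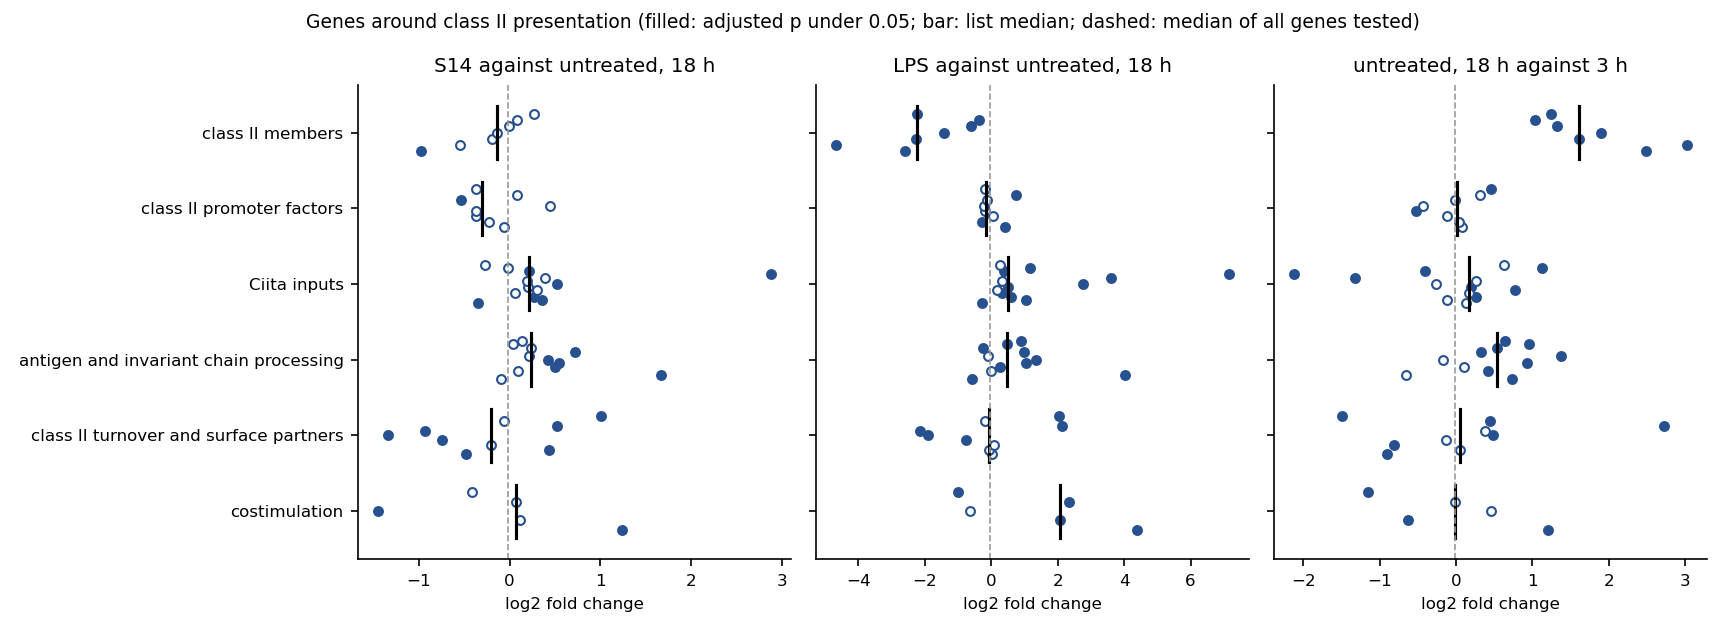
Log2 fold changes (x axis) of each tested gene in the class II list and in 5 lists of genes around it (y axis), for S14 against untreated at 18 h, LPS against untreated at 18 h, and untreated cells at 18 h against 3 h. Filled points passed an adjusted p of 0.05, the bar is the list's median and the dashed line the median of all genes: the class II median is -2.23 with LPS and 1.61 over time.

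The members' log2 CPM was compared over the 24 libraries, which share the groups above. The I-A and I-E chain genes, Cd74 and Ciita had Pearson correlations of 0.79 to 0.95 with each other, with H2-Aa and Ciita at 0.95. H2-DMa and H2-DMb1 had a correlation of 0.91 with each other and of 0.56 to 0.79 with the other 5 genes. H2-Ab1 did not separate these sets, with 0.79 to H2-DMb1 and 0.81 to Ciita. Without untreated 18 h replicate 4 the lowest and highest of the 21 correlations were 0.54 and 0.95. Of 8115 other genes with a mean of at least 10 CPM, those most like Cd74 over the 24 libraries were Anpep (0.96), Ubl3 (0.95), Selenop (0.95), Cyp27a1 (0.95) and Ppp3ca (0.94). Anpep, an aminopeptidase, averaged 525 CPM in S14 cells, 297 CPM in LPS cells and 891 CPM in untreated cells at 18 h, an order shared with Cd74. Those most like Ciita were Colgalt1 (0.93), Reps2 (0.93), Ap1s2 (0.91), St6gal1 (0.91) and Hpgds (0.91). Without that library 4 of the first 5 and 3 of the second 5 stayed among the most alike, and Lmo2, Camk1 and Lyz2 entered.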

How the data were processed

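The authors deposited 2 tables. One holds raw counts, deposited as whole reads per gene, and every test used these counts. The other holds a signal, which the authors deposited as reads over a size factor of the library; undoing this gave whole reads for 100% of values within 0.1%, and the table adds 114 spike-in RNAs, of which 62 had a read. Per the submitters' processing notes, cutadapt 1.18, STAR 2.6.1a, featureCounts 1.6.4, DESeq2 and GRCm38 were used; the sources used here do not give the strand setting or how reads with several matches were treated. A table header calls control cells Veh and the labels call them untreated.

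After 7 ribosomal RNA entries (0.32% of counts) were removed, filterByExpr (at least 10 counts, total of 15) left 11717 genes. With TMM scaling, edgeR 4.0.16 in R 4.3.3 was fitted to all 24 libraries with a mean for each group and robust dispersion, which leaves 18 residual degrees of freedom. Its quasi-likelihood p-values were adjusted by Benjamini-Hochberg over all genes, and a call is an adjusted p under 0.05. SE is the fold change on the log2 scale over the root of F. The code was tested on simulated data. Alternatives were 8 other fits, DESeq2 1.42.0 among them, and 24 fits without 1 library each. The members and the gene lists were chosen with earlier results of these data known. Any tested gene of the promoter factor, Ciita input and class II region lists could be named, of other lists the 3 largest called changes with at least 10 CPM, and for likeness the 5 highest correlations of log2 CPM (prior count 2). Some items are not reported here.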

Additional observations from a re-analysis of the deposited data

Results flagged for a closer look

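Of 48 sets of 4 libraries (8 genes in 6 groups), 4 held 1 library far from the other 3, where chance gives about 1 in 20. Untreated 18 h replicate 4 was high for Cd74, with a gap to its nearest neighbour of 0.961 of the group's range. In S14 cells at 18 h, replicate 2 was high for H2-Aa (0.957, within a range of only 189 to 199.9 CPM) and replicate 3 was low for Ciita (0.855). In LPS cells at 18 h, replicate 4 was low for H2-DMa (0.926).

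The treatments' effects differed between 18 h and 3 h in 8 tests of the difference itself, given here as the 18 h effect minus the 3 h effect on the log2 scale. For S14 they were Cd74 (-1.27) and H2-Ab1 (-0.93). For LPS they were Ciita (-4.25), Cd74 (-3.49), H2-Aa (-2.45), H2-Ab1 (-2.23), H2-Eb1 (-2.05) and H2-DMb1 (-0.57). All share the untreated cells, which themselves changed between the time points.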

How the results depend on the processing

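The 7 of 7 calls for LPS against untreated at 18 h (lower) and for untreated cells over time (higher) were made in every fit run, except that 6 of 7 passed for LPS with spike-in scaling without untreated 18 h replicate 4 and when any of 4 single libraries was left out. In that spike-in fit 2573 of all genes tested then were lower with LPS at 18 h and 1445 higher. With DESeq2's size factors in edgeR, with DESeq2's own test, with no filter on low counts and with the second table's reads, no count of called members moved past 1.5 times (the change of the S14 effect went to 3 members with the first 3, H2-Aa being added). H2-DMa for S14 at 18 h turned to 0.0056 with no filter and to 0.0029 with the second table. In fits of only the compared groups, 4 members rather than 1 were higher with S14 at 3 h, and 3 rather than 2 with LPS at 3 h. For these fits the share of all genes that passed is not given. With spike-in scaling, 0 members were higher with S14 at 3 h, 7 were lower with S14 at 18 h, 0 were higher and 0 lower for S14 against LPS at 3 h, and 7 were below 0 for the change of the S14 effect. Of all tested genes, 346 were then higher with S14 at 3 h and 7533 lower with S14 at 18 h. For S14 against LPS at 3 h 612 were higher and 1620 lower. For the change of the S14 effect 4095 were below 0 and 20 above, and the median of all genes moved by -1.08. That scaling turned Ciita (0.0030), H2-DMa (0.060) and H2-Eb1 (0.13) for LPS at 3 h, H2-Eb1 (-0.76) and H2-DMb1 (-0.90) for S14 at 18 h, and H2-Aa (-0.18) for S14 against LPS at 3 h. Without untreated 18 h replicate 4 as well, 2 were lower with S14 at 18 h and 0 higher for S14 against LPS at 3 h. Of all genes tested then, 2157 were lower with S14 at 18 h, and 1066 were higher for S14 against LPS at 3 h. The turned values in this fit were H2-DMa (0.056) and H2-Eb1 (0.13) for LPS at 3 h, H2-Eb1 (-0.19) and H2-DMb1 (-0.44) for S14 at 18 h and H2-Aa (-0.18) for S14 against LPS at 3 h. The cause of these changes was not tested.

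Leaving out 1 library at a time gave 1 to 2 members higher with S14 at 3 h, 1 to 2 lower with S14 at 18 h and 1 to 2 higher for S14 against LPS at 3 h. Values near 0 changed sign: for the change of the S14 effect H2-Eb1 ran from -0.14 to 0.042, H2-DMb1 from -0.18 to 0.050 and H2-DMa from -0.19 to 0.033, for S14 against LPS at 3 h H2-Ab1 ran from -0.075 to 0.0038, and for S14 at 18 h H2-DMa ran from -0.075 to 0.12 and H2-DMb1 from -0.013 to 0.16. H2-Eb1 for S14 at 3 h passed without untreated 3 h replicate 4 (0.40, adjusted p = 0.0317), and Ciita for S14 against LPS at 3 h without LPS 3 h replicate 1 (1.11, adjusted p = 0.0122). Libraries with the same number deviated together weakly at most (correlations from -0.03 to 0.14). The match was best with the own number in 17 of 28, a hint from the data, but in 0 of 7 comparisons were all correlations over 0.1, so the numbers were not taken as pairs. With a replicate block no call changed: 7 members were lower with LPS at 18 h and Cd74 was -0.96 with S14 at 18 h. Depth limits Ciita in LPS cells (3 to 10 reads per library at 18 h) and H2-DMb2.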
